A study of Catharanthus roseus with 3 samples.

Results

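PRX1 (Cr_TC57083), the peroxidase that the study places at the coupling of vindoline and catharanthine, is 1 of the 59220 assembled transcripts of Catharanthus roseus (Madagascar periwinkle). It was selected by its identifier, and its levels were compared between tissues and with those of D4H (Cr_TC51001) and DAT (Cr_TC35622), enzymes of late vindoline synthesis. Leaf, root and flower were collected from field-grown mature plants of the variety Prabal without any treatment, and each tissue gave 1 library, so 3 libraries were compared. The plants' age and how many of them gave each tissue are not given in the sources used here. The identifiers and values stand alone in the files, and the names come from the study. Tissue labels could therefore be set only beside named alkaloid transcripts, of which T19H (Cr_TC04217), a tabersonine hydroxylase known from roots, had 8.96 RPKM in the library labelled root and 0.01 in leaf and was listed at 0 in flower. This bears on the root label only, and the labels of leaf and flower were taken as given.

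Plant secretory peroxidases form a large family of heme enzymes that use hydrogen peroxide to oxidise small molecules in the cell wall and the vacuole. In periwinkle, a vacuolar member of the family joins catharanthine to vindoline in leaves. The product, anhydrovinblastine, is the precursor of the anticancer drugs vinblastine and vincristine. Vindoline itself is built from tabersonine by a series of enzymes, of which D4H adds a hydroxyl group and DAT the final acetyl group. Catharanthine does not pass through these steps, so the coupling enzyme needs the products of both routes.

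The level of PRX1 was 30.8 RPKM in root, 46.1 RPKM in leaf and 270.2 RPKM in flower. RPKM is the number of reads per kilobase of transcript relative to the reads of the library, so levels of different transcripts can be compared. Flower was the highest tissue, 5.86-fold above leaf and 8.76-fold above root, while leaf was 1.496-fold above root. Flower held 77.8% of the sum of the 3 values, leaf 13.3% and root 8.88%. With no replicates, the spread between plants is unknown and none of these differences was tested. In whole tissues, fewer cells with the transcript and less of it per cell cannot be told apart. The column is headed as a base mean, and its values were taken as RPKM because they carry 2 decimals and sum to between 452743 and 471970 in each library. Related members of a peroxidase family can share reads. The values rest on uniquely mapped reads, and whether a close copy of PRX1 took part of its reads was not tested.

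**Figure D1:**
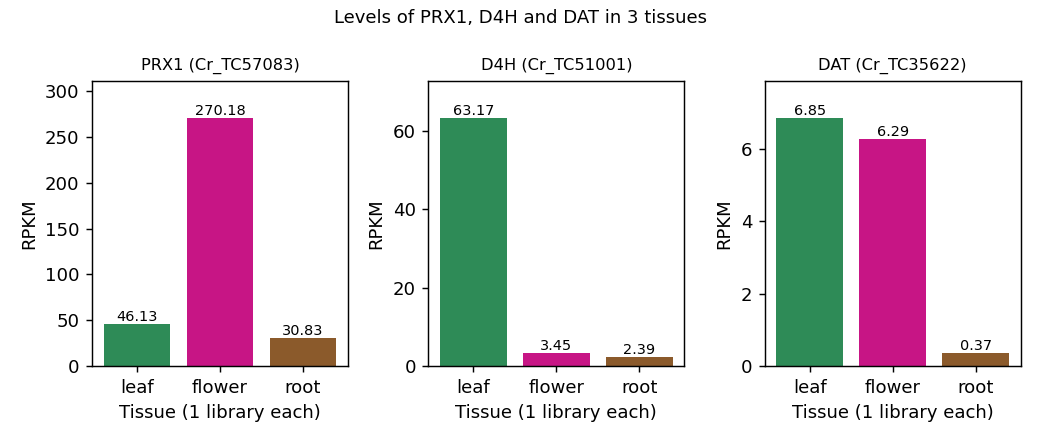
Bars show the level (RPKM, linear axes from 0, a separate axis for each transcript) of PRX1, D4H and DAT in leaf, flower and root, with 1 library per tissue and therefore no error bars. PRX1 was highest in flower at 270.2 RPKM, D4H in leaf at 63.2 RPKM, and DAT was similar in leaf and flower at 6.85 and 6.29 RPKM.

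Within each library, PRX1 was among the more abundant transcripts. It ranked 139 of 59220 in flower, 1922 in leaf and 3125 in root, where rank 1 is the highest value. These ranks correspond to the top 0.235% of all transcripts in flower, the top 3.25% in leaf and the top 5.28% in root. The most abundant transcript of each library stood 10.1-fold above PRX1 in flower, 59.4-fold above it in leaf and 70.9-fold above it in root. Ranks do not depend on how the libraries are scaled to each other, and they gave the same order of tissues as the RPKM values. Of the summed RPKM of each library, PRX1 held 0.0582% in flower, 0.0102% in leaf and 0.00653% in root.

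**Figure D2:**
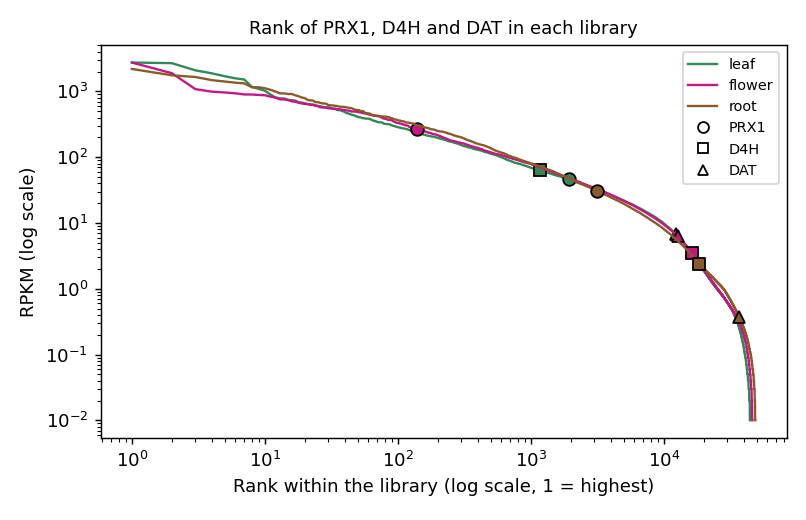
Each line gives the RPKM of all transcripts above 0 in a library against their rank, both on log scales, for leaf, flower and root, and the symbols mark PRX1 (circles), D4H (squares) and DAT (triangles). The flower circle of PRX1 stands at rank 139, ahead of its leaf circle at rank 1922 and its root circle at rank 3125.

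Differences between tissues were read by a rule of size. Log2 ratios of (RPKM + 1) had to reach 1 in either direction, which is 2-fold, and 1 of the 2 tissues had to reach 10 RPKM. PRX1 was lower in leaf than in flower, with a log2 ratio of -2.52, as were 20.9% of the 12310 transcripts compared. A ratio at or below that of PRX1 was found for 1117 of them (9.07%), PRX1 included. The median over the compared transcripts was 0.07. PRX1 was also lower in root than in flower, with a log2 ratio of -3.09, where 23.6% of 11639 transcripts were lower. In that comparison 819 transcripts (7.04%) lay at or below PRX1, and the median was -0.18. Between leaf and root PRX1 was within 2-fold, with a log2 ratio of 0.57, whereas 54.5% of 12517 transcripts were at least 2-fold apart in one direction or the other. A ratio at least as large as that of PRX1, in either direction, was found for 71.1% of them. Both comparisons with flower use the same flower library, so they are not independent of each other. The leaf and root values of PRX1 thus lay within 2-fold of each other, and the flower value lay apart from both.

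The flower share of PRX1 was high among all transcripts, but not among those as abundant in flower. Of the 13867 transcripts with at least 10 RPKM in some tissue, 774 (5.58%) had a flower share of 77.8% or more, and the median share was 30.8%. Of the 139 highest transcripts in flower, which end with PRX1, 67 had such a share and their median was 76.1%. The 139 highest transcripts of the other libraries gave similar medians for the share in their own library, 74.9% in leaf and 73.7% in root. Taking the highest transcripts of a library favours those that are higher there than elsewhere. Of the same 139 transcripts in flower, 80 had a leaf against flower ratio at or below that of PRX1, and 74 had a root against flower ratio at or below it. In leaf 70 of the 139 had a lower level than PRX1, and in root 68 did.

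D4H, the hydroxylase that acts before DAT, had 2.39 RPKM in root, 3.45 in flower and 63.2 in leaf. Leaf stood well above the other tissues, and D4H ranked 1167 in leaf, 18526 in root and 16295 in flower. DAT, the acetyltransferase that completes vindoline, had 0.37 RPKM in root, 6.29 in flower and 6.85 in leaf. Leaf and flower were close to each other, and root was low. PRX1 and D4H therefore had their highest value in different tissues, and DAT showed no such gap between leaf and flower.

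The level of PRX1 relative to D4H differed between tissues over a wide range. PRX1 was 0.730-fold the level of D4H in leaf, 12.9-fold in root and 78.3-fold in flower, so that the ratio was 107-fold larger in flower than in leaf. Leaf was the only tissue of the 3 in which D4H exceeded PRX1. Relative to DAT, PRX1 was 6.73-fold higher in leaf, 43.0-fold higher in flower and 83.3-fold higher in root. PRX1 exceeded DAT in every library, by the largest factor in root, where DAT had 0.37 RPKM. The number of reads behind that low value is unknown. These ratios are taken within a library and do not change with the scaling between libraries.

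The remaining listed transcripts of the vindoline branch differed from PRX1 as well. T16H (Cr_TC35206), the hydroxylase that starts the branch from tabersonine, had 0.04 RPKM in root, 7.01 in leaf and 17.3 in flower. It was the branch member that, like PRX1, was highest in flower, and its flower share of 71.0% was the nearest to that of PRX1. 16OMT (Cr_TC58091), the methyltransferase of the next step, had 3.44 RPKM in root, 10.1 in flower and 20.2 in leaf. NMT (Cr_TC06574), an N-methyltransferase ahead of D4H, had 6.29 RPKM in root, 16.6 in flower and 43.3 in leaf. Leaf was highest for both. All 5 branch transcripts were lowest in root, as was PRX1. The share of all transcripts lowest in root was not counted, so this is not read as a likeness particular to them. Their summed level was 12.5 RPKM in root, 53.7 in flower and 141 in leaf. PRX1 was 0.328-fold this sum in leaf, 2.46-fold in root and 5.03-fold in flower. The sum of these 5 stood above PRX1 in leaf and below it in root and flower. Taken singly, only D4H exceeded PRX1 in leaf, at 63.2 RPKM against 46.1, and the others of the 5 were below it.

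By the same rule of size, 2 of the 5 branch transcripts (NMT and D4H) were higher in leaf than in flower, 1 (T16H) was lower, 1 (16OMT) was within 2-fold, and DAT was not compared because both values were under 10 RPKM. In all, 21.5% of the compared transcripts were higher in leaf than in flower. In root against flower, T16H, 16OMT and NMT were lower, and D4H and DAT were not compared. With no minimum value, 4 of the 5 were lower in root than in flower, all but D4H with a log2 ratio of -0.39, as were 10.3% of all 59220 transcripts. All 5 were higher in leaf than in root with no minimum value, as were 13.1% of all transcripts, whereas PRX1 was within 2-fold between these tissues. The shares of 10.3% and 13.1% are lowered by transcripts at or near 0, since only 13867 of the 59220 reached 10 RPKM in some tissue. With the minimum, 23.6% of 11639 transcripts were lower in root than in flower. By the same rule 16OMT, NMT and D4H were higher in leaf than in root, as were 3724 of 12517 transcripts. T16H and DAT were not compared there. The median log2 ratio of leaf against root over the 5 was 2.60, beside 0.57 for PRX1 and 0.26 over all transcripts compared. The sets are unlike, since the 5 include T16H and DAT, which fall under the minimum that the compared transcripts had to reach.

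**Figure D3:**
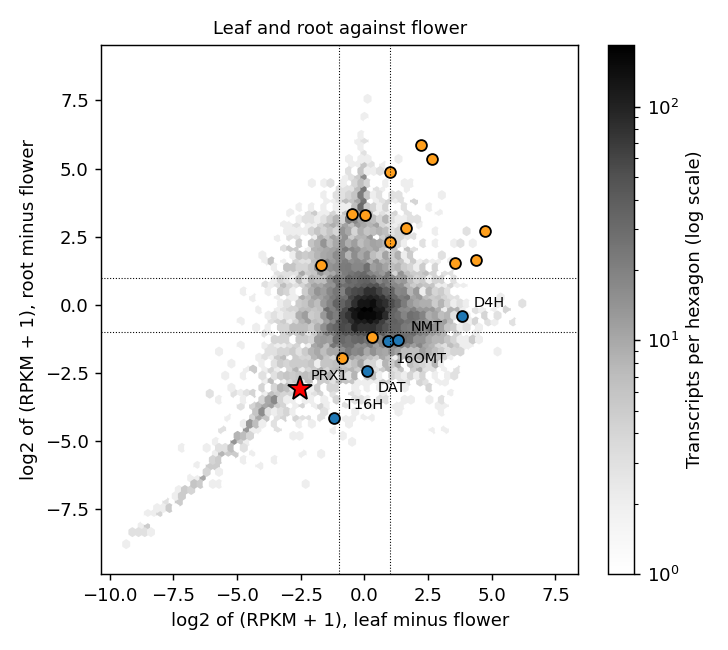
The log2 ratio of (RPKM + 1) of leaf against flower (horizontal axis) and of root against flower (vertical axis) is shown for all transcripts with at least 10 RPKM in some tissue as grey hexagons shaded by their number on a log scale. The star is PRX1 at -2.52 and -3.09, blue points are the vindoline branch, orange points are the other alkaloid transcripts, and dotted lines mark 2-fold. The narrow grey diagonal at the lower left holds transcripts far lower in both leaf and root than in flower, and the axes share the flower library.

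PRX1 was next set beside 18 transcripts of the terpenoid indole alkaloid pathway, those of the vindoline branch included. This list holds the pathway transcripts whose names and identifiers were at hand as text, and not the whole pathway. Leaf was the highest tissue for 8 of the 18, root for 8 and flower for 2, T16H and STR1 (Cr_TC04185), a strictosidine synthase with 8.31 RPKM in root, 18.4 in leaf and 34.8 in flower. How many of all transcripts were highest in each tissue was not counted, so these counts are not read as a trait of the list. In flower PRX1 led the list, ahead of all 18. The next was HDR (Cr_TC43359), which ends the plastid route to terpenoid precursors, at 166 RPKM, and the median of the 18 was 9.80 RPKM. In leaf PRX1 was at place 6 of 19, between D4H and NMT, and it exceeded 13 of the 18. In root it was at place 10, just below SGD (Cr_TC57924), the glucosidase that opens strictosidine, at 33.8 RPKM, and it exceeded 9 of the 18. The first of the list in root was SLS (Cr_TC01142), which makes secologanin, at 577 RPKM, 18.7-fold the level of PRX1.

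Of the 18, 15 could be compared between leaf and flower. By the rule of size 9 were higher in leaf, beside 21.5% of all compared transcripts. Lower in leaf were 2, T16H and CPR (Cr_TC07063), the reductase that serves cytochrome P450 enzymes, beside 20.9% of all. The median log2 ratio of the 18 was 0.999. In root against flower, where 13 could be compared, 8 were higher, as against the 20.8% of all compared transcripts, and 5 were lower, as against 23.6% of all, with a median over the 18 of 1.59. PRX1, at -2.52 and -3.09, lay on the other side of 0 from both medians. The ratio of PRX1 to another transcript could be formed in all 3 tissues for 17 of the 18, since T19H was listed at 0 in flower. For all 17 the ratio was larger in flower than in leaf, from 1.74-fold larger for CPR to 193-fold larger for SGD. For 15 it was larger in flower than in root, the others being T16H and DAT. A larger ratio in flower means only that the other transcript leans less to flower than PRX1 does, and among all compared transcripts 90.93% had a leaf against flower log2 ratio above that of PRX1 and 92.96% a root against flower log2 ratio above it. The counts of 17 and 15 of 17 are near these shares and follow from the place of PRX1 itself. The 2 measures are not the same, since the counts use RPKM with nothing added and no minimum. By RPKM, DAT was 17-fold lower in root than in flower, beyond the 8.76-fold of PRX1. Its log2 ratio of (RPKM + 1) was -2.41, above that of PRX1. Between root and leaf there was no common direction, and the ratio was larger in root for 10 of the 17. Among all 12517 compared transcripts, 40.78% had a leaf against root log2 ratio above that of PRX1. The same difference of measure holds here.

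**Figure D4:**
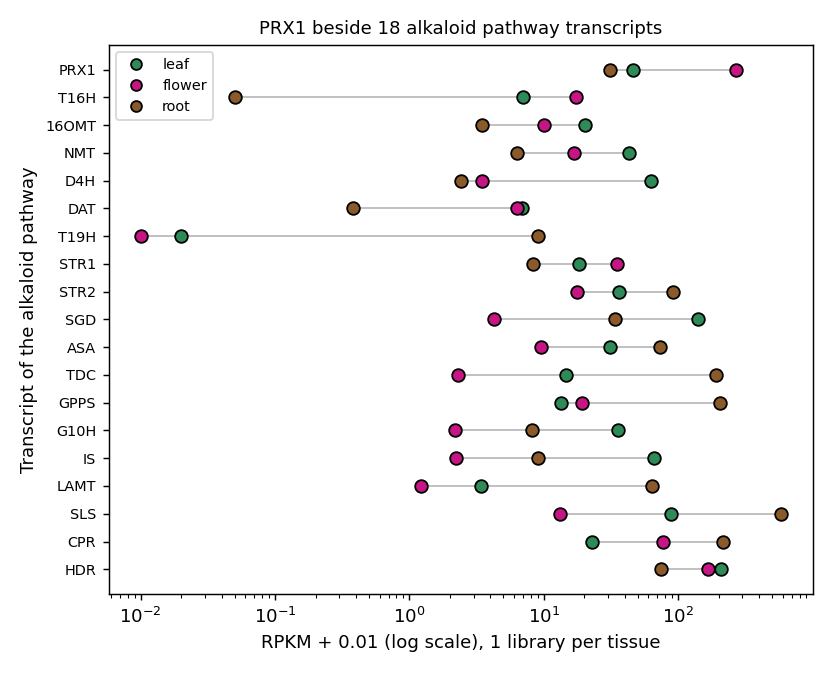
Points give the level (RPKM + 0.01, log scale) of PRX1 and 18 other alkaloid pathway transcripts in leaf, flower and root, with 1 library per tissue, and grey lines span the lowest and highest value of each. PRX1, in the top row, has the rightmost flower point of the plot at 270.2 RPKM, and T16H, DAT and T19H have points below 1 RPKM.

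The transcripts whose tissue pattern was most like that of PRX1 were found from the distance between the pairs of log2 ratios of leaf and root against flower, which rest on 3 libraries. Of 13866 other transcripts with at least 10 RPKM in some tissue, 10 lay within 0.25 of PRX1 (0.0721%) and 54 within 0.5 (0.389%). The nearest was Cr_TC10364, with 0.58 RPKM in root, 1.4 in leaf and 13.1 in flower, at a distance of 0.075. Next came Cr_TC05678, Cr_TC38526, Cr_TC22391 and Cr_TC06108, at distances of 0.077 to 0.15. All 5 had between 11.1 and 23.9 RPKM in flower, far below PRX1, and at such levels the added 1 RPKM pulls the ratios towards 0. Without it, flower was 9.36-fold leaf and 22.6-fold root for Cr_TC10364, against 5.86-fold and 8.76-fold for PRX1. With 0.1 RPKM added instead of 1, none of the 5 stayed among the nearest 5, and the nearest was Cr_TC12402. It had 2.45 RPKM in root, 3.79 in leaf and 22.3 in flower. None of the 5 stayed with 10 RPKM added or with a minimum of 50 RPKM, while 4 stayed with no minimum. When the levels themselves were compared, the nearest transcript was Cr_TC34417, with 35.6 RPKM in root, 37.9 in leaf and 351 in flower, at a distance of 0.51 over the 3 log2 values. No transcript lay within 0.5 by that measure. Next were Cr_TC09839, Cr_TC46986, Cr_TC10024 and Cr_TC09674, at distances of 0.84 to 0.95, with flower values between 159 and 176 RPKM. These transcripts are not named here. Of the listed alkaloid transcripts, T16H was the nearest to PRX1 in the ratios, at a distance of 1.69, which placed it 601 among all transcripts by nearness.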

How the data were processed

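RNA from leaf, root and flower was sequenced as 1 library per tissue, grouped by the tissue label. The authors filtered reads with NGS QC Toolkit (v2.3), removed duplicates, aligned them to their transcript assembly in CLC Genomics Workbench, allowing up to 2 mismatches, and computed RPKM from uniquely mapped reads. The deposited RPKM values, headed as base means, were used as they stand. The submitters' processing notes name DESeq. Without read counts, transcript lengths or replicates, no count model was fitted, no p-value or interval is given and the depth behind a value is unknown. No identifier matched the RefSeq gene table (0 of 59220), so no sequence or coordinates are shown.

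Log2 ratios of (RPKM + 1) were called at 2-fold where either tissue reached 10 RPKM. This understates the changes of low transcripts. Named transcripts were PRX1, D4H and DAT, the alkaloid transcripts whose names and identifiers were given in text, and the 5 transcripts nearest to PRX1 by each measure of distance. Members and lists were chosen with earlier results of these data known. As alternatives, the pseudocount was set to 0.1 or 10, the minimum was dropped or raised to 50 RPKM, the line was set at 4-fold, and libraries were scaled to the same total, a common upper quartile or the median ratio to the geometric mean. The rule of size was also run on simulated data, which cannot show the spread between plants, and no conclusion is drawn from it. Python 3.11.15, numpy 2.4.6, pandas 2.3.3 and matplotlib 3.10.9 were used.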

Additional observations from a re-analysis of the deposited data

How the results depend on the processing

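The 3 comparisons of PRX1 kept their direction and their side of the 2-fold line with pseudocounts of 0.1 and 10 and under 3 scalings. The scalings shifted log2 ratios against flower by at most 0.23, too little to move either comparison with flower across the line. A 4-fold line leaves the ratios themselves unchanged. By that line both comparisons with flower were still lower, and leaf against root was still within it. The log2 ratios ranged from -2.64 to -2.32 in leaf against flower, from -3.13 to -2.78 in root against flower and from 0.22 to 0.62 in leaf against root. The number of transcripts within 0.5 of the pattern of PRX1 was 54 as reported, 13 with a minimum of 50 RPKM and 130 with no minimum. For DAT, a pseudocount of 10 brought root against flower to -0.65 and leaf against root to 0.70, within 2-fold, since no value under 10 RPKM can then reach the line. The other alternatives for D4H and DAT changed no side.

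The numbers of all transcripts at least 2-fold higher and lower were 2643 and 2576 in leaf against flower, 2419 and 2743 in root against flower and 3724 and 3104 in leaf against root. With no minimum they were 5114 and 5374, 8918 and 6077, and 7781 and 10280. With a minimum of 50 RPKM they were 769 and 868, 853 and 728, and 888 and 1090. At 4-fold they were 1205 and 1408, 1343 and 1380, and 2019 and 1984, and with a pseudocount of 10 they were 1563 and 1766, 1702 and 1639, and 2255 and 2294. Scaling by the median ratio moved the share of higher transcripts among those called from 46.9% to 57.04% in root against flower and from 54.5% to 41.8% in leaf against root, through log2 shifts of 0.23 and -0.35. No paired analysis was possible because each tissue has 1 library, and for the same reason no library could be left out.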
